A study of Arabidopsis thaliana with 36 samples.

Results

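Of 33602 Arabidopsis thaliana genes listed for an ethylene experiment, 136 were lowered late by ACC, the natural precursor of the hormone ethylene: their level was lower after 4 h of ACC, and less so or not at all after 2 h. They were chosen on measured values. The mean of the 3 mock libraries at 4 h had to reach 5 RPM (reads per 1e+06 reads), which left 15422 genes. The difference of mean log2(RPM + 1), ACC minus mock, had to be at most -0.8 at 4 h and above -0.6 at 2 h. The first of these limits left 262 genes, and the second removed the 126 of them whose 2 h difference was -0.6 or lower. The differences at 2 h and 4 h are therefore given as a description only, and the glucose experiments, which played no part in the choice, carry the tests.

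All libraries were made from whole 4-day seedlings, 3 per group, and the design text names the replicates as biological. For ethylene, seedlings of the wild type Col-0 in liquid medium with 0.5% glucose were given 10 µM ACC or mock treated, and were sampled at 2 h and at 4 h. For TOR, seedlings of Col-0 and of tor were raised in liquid medium lacking glucose, and 15 mM glucose was then added or withheld over 2 h. The tor line is labelled XVE-TOR RNAi, an inducible silencing construct against the growth-promoting kinase TOR. For HXK1 the same glucose treatment was given to the wild type Ler and to gin2, a mutant of the hexokinase and glucose sensor HXK1. Nothing in the labels says that the replicates came from separate cultures, so p-values measure the spread between these libraries.

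Ethylene is a gaseous hormone that slows the growth of young shoots and roots, and seedlings convert supplied ACC to it within hours. Growing seedlings make wall proteins, vacuolar water channels, lipid transfer proteins for the surface layer, and the chlorophyll-binding antenna proteins that feed light energy to the photosystems. Glucose feeds and signals growth: TOR promotes growth when sugar is available, and HXK1 both phosphorylates glucose and senses it. Genes for antenna proteins are classical targets of sugar repression, and genes that free amino acids or stored sugars are classical genes of starvation.

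The deposited values are reads per 1e+06 without a correction for gene length, so levels are compared between samples and not between genes. The listed genes held 16.4 to 21.5 M reads (M stands for 1e+06) in each ethylene library, 13.3 to 21.9 M with Col-0 and tor under glucose, and 7.93 to 11.6 M in Ler. The 6 ethylene response genes chosen as a check had a summed level of 221 to 267 RPM in mock at 4 h and 718 to 776 RPM with ACC. TOR itself was higher in the libraries labelled tor, at 223 ± 0.597 RPM (SD, n = 3) without glucose, than in Col-0, at 115 ± 5.17 RPM, so tor is used here as the name on the label. HXK1 was lower in gin2, at 14.4 ± 0.924 RPM without glucose, than in Ler, at 34.0 ± 10.6 RPM. In both Ler libraries numbered 3, 54.3% and 54.0% of the reads fell on genes that the table does not list. In the remaining Ler libraries the share was 26.8% to 41.2%, and in gin2 it was 13.0% to 18%. All Ler libraries thus lay above all gin2 libraries.

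One library stood apart in the choice of the genes. Set against the mock mean, the median member differed by -0.18 and -0.22 (log2) in the ACC 2 h libraries numbered 1 and 2 and by -0.71 in library 3. In library 3, 54 of the 136 genes lay below -0.8, against 1 and 5 in libraries 1 and 2, while the median of all genes tested was 0.02, 0.01 and 0.06. Of the 136 genes, 102 were lower in library 3 than in both others. Without library 3 the rule would have chosen 160 genes, of which 126 are among the 136 described here. The 3 ACC 4 h libraries were closer to each other, with medians of -1.06, -0.87 and -0.98.

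Promoters are shown for 5 of the 6 antenna genes because these genes were all lower with ACC at 4 h, while glucose moved them in different directions. The 250 bases before their annotated starts are given here from RefSeq, build TAIR10.1, each 5′ to 3′ on the gene's own strand. LHB1B2 (chr2:14523569-14523818, minus strand) and LHB1B1 (chr2:14524357-14524606, plus strand) start 1039 bases apart and point away from each other with no gene between. LHCB2.1 (chr2:1824481-1824730) and LHCB2.2 (chr2:1800473-1800722), both on the minus strand, share 1 unbroken run of 20 bases, shown in capitals, 86 and 80 bases before their starts. LHCB2.3 (chr3:10255656-10255905, plus strand) has its G-box in capitals, 88 bases before its start.
LHB1B2: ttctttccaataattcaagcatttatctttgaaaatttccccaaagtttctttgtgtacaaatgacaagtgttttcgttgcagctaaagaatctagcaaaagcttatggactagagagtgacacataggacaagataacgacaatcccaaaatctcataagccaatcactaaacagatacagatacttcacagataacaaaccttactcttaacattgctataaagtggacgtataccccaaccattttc
LHB1B1: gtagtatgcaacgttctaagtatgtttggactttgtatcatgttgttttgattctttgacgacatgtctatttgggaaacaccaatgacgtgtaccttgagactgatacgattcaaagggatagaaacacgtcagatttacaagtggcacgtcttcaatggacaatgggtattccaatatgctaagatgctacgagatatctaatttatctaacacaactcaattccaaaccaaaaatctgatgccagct
LHCB2.1: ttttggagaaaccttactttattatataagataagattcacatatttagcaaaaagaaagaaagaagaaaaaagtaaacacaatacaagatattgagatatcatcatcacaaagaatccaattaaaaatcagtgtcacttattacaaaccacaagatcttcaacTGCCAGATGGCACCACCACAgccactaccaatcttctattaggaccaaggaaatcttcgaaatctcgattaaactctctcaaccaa
LHCB2.2: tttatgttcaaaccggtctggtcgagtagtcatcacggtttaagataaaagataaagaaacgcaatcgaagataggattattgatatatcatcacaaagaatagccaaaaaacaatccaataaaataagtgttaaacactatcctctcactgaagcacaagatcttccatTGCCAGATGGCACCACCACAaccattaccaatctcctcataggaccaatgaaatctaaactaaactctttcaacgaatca
LHCB2.3: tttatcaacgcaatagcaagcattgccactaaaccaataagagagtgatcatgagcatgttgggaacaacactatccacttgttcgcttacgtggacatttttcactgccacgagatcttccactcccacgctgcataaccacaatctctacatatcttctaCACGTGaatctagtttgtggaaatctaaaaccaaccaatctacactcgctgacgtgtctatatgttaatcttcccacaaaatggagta

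The other 9 pairs among these sequences shared no run longer than 8 to 10 bases. Motifs were searched on both strands from 250 bases before to 50 bases after each start. The G-box, CACGTG, was found in 11.1% of the 135 promoters of late genes with an entry and in 7.79% of all 26711 promoters of protein-coding genes, and in 4 of the 9 photosynthesis genes. The I-box, GATAAG, was found in 17.8% and 14.6%, and ATGTA, the core letters of sites for the ethylene factor EIN3, in 51.1% and 56.5%. The GCC box, GCCGCC, was found in 2.22% and 2.55%. The GT-1 type letters, GGTTAA, were found in 8.89% and 16.8%, and the telo-box core, AACCCTA, in 4.44% and 8.74%. The evening element core, AATATCT, was found in 10.4% and 11.6%. Among promoters of genes tested in the ethylene experiment, the G-box was found in 8.63%, GGTTAA in 17.6% and AACCCTA in 7.71%. These matches are a description of letters and not of binding.

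Across the 136 genes, the ACC difference had a median of -0.39 (log2, range -0.60 to 0.47) at 2 h and of -0.96 (range -1.64 to -0.80) at 4 h. At 2 h, 131 genes lay below 0, 67 of them between -0.6 and -0.4, and 20 genes lay above -0.2. The 3 ACC libraries all lay below the 3 mock libraries for 133 genes at 4 h, where 16.6% of all tested genes did so, and for 45 genes at 2 h, where 8.88% did. With limma, 131 of the 136 passed an adjusted p of 0.05 as lower at 4 h, where 8.88% of all tested genes did, and 23 at 2 h, where 3.78% did. The choice of the genes sets all of these counts. Mock seedlings changed little between the times, with a median of 0.04 and a range of -0.28 to 0.79. The level in mock at 4 h ran from 5.03 to 1756 RPM with a median of 26.3.

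The limits cut through a continuous range. Just inside the limit at 4 h lay IGMT1 at -0.8003 and just outside lay AGP30 at -0.7993. At 2 h, AT2G48030 lay just inside at -0.597 and the aquaporin PIP3 just outside at -0.607, although PIP3 differed by -1.10 at 4 h. The regulator ZFHD1 was just inside the level limit at 5.03 RPM, and AT4G22460 just outside at 4.94 RPM.

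**Figure D1:**
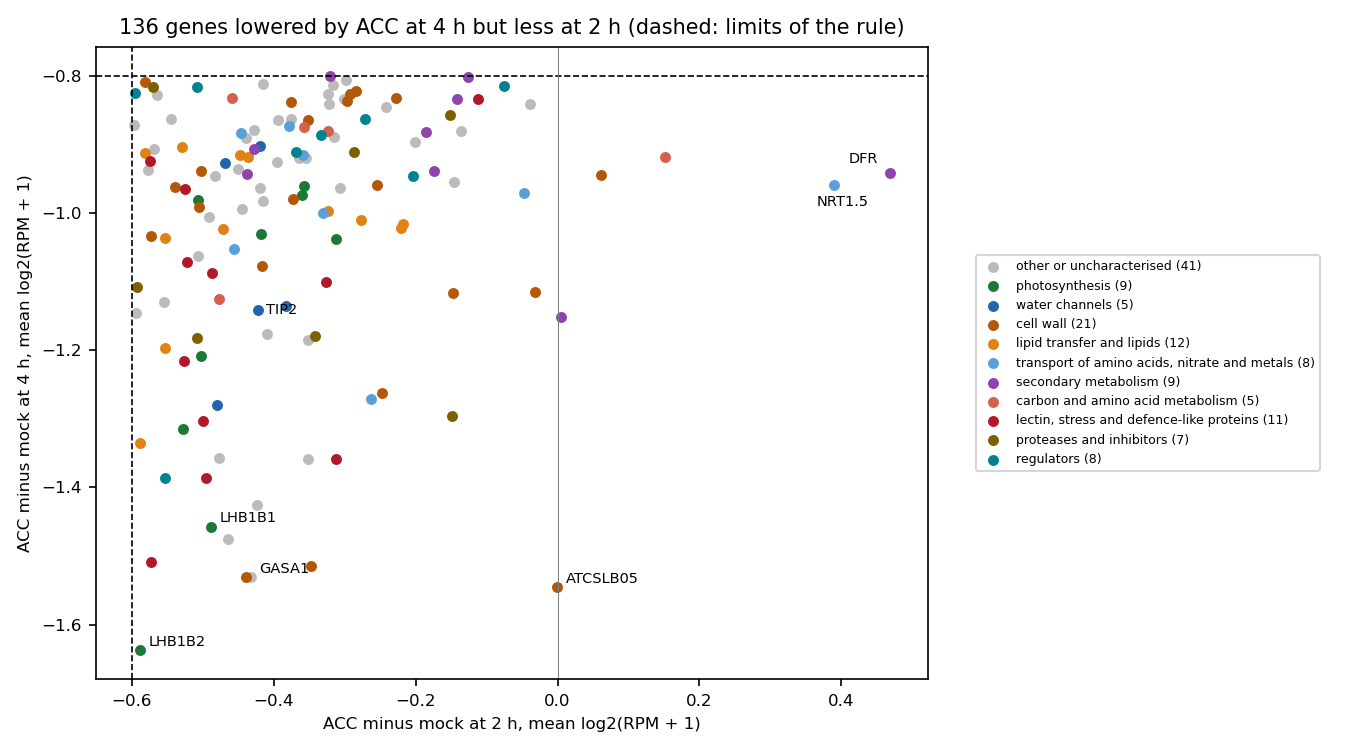
Difference of mean log2(RPM + 1), ACC minus mock, at 2 h (horizontal axis) and 4 h (vertical axis) for each of the 136 genes, 1 point per gene, coloured by group, with the limits of the choice as dashed lines. Most genes lie left of 0 at 2 h, and LHB1B2 is lowest at 4 h at -1.64.

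By annotated product, 9 of the genes serve photosynthesis, 5 are water channels, 21 act in the cell wall, 12 in lipid transfer and lipids, 8 in transport of amino acids, nitrate and metals, 7 are proteases or their inhibitors, 8 are regulators, 5 act in carbon and amino acid metabolism, 9 in secondary metabolism, and 11 are lectins and stress or defence-like proteins. The remaining 41 are of other or unknown function. They are spread over all chromosomes, with 37, 21, 32, 22 and 24 on chromosomes 1 to 5. In 6 neighbouring pairs the genes have no gene between them, among them LHB1B2 and LHB1B1, the lipid transfer genes LTP2 and LP1, the amino acid transporter genes UMAMIT20 and UMAMIT17, and the methyltransferase genes IGMT1 and IGMT3.

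The antenna gene LHB1B2, which encodes a subunit of the main light-harvesting complex of photosystem II, had the lowest 4 h difference of all members. Its level was 1059, 993 and 881 RPM in mock at 4 h and 261, 410 and 286 RPM with ACC. At 2 h it was 1200, 1133 and 894 RPM in mock and 921, 955 and 407 RPM with ACC. The groups did not overlap at 4 h, and at 2 h 2 of the ACC libraries exceeded the lowest mock library while library 3 was far below. LHCB6, a minor antenna protein, went from 825, 874 and 804 RPM to 286, 434 and 376 RPM at 4 h, again without overlap. At 2 h its ACC libraries were at 801, 849 and 391 RPM, so library 3 alone was near the later level.

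The other photosynthesis genes were the antenna genes LHB1B1, LHCB2.1, LHCB2.2 and LHCB2.3, the photosystem I subunit gene PSAH-1, the plastid aldolase gene FBA2 and CP12-1, whose product ties enzymes of carbon fixation together. Their 4 h differences ran from -1.46 for LHB1B1 to -0.96 for LHCB2.3. The median over the 9 genes was -0.49 at 2 h and -1.04 at 4 h. Among the 14 antenna genes that are not members, 6 passed the test as lower at 4 h, and among the 22 other photosystem subunit genes 13 did. In other lists 2 of 13 chlorophyll synthesis genes, 2 of 12 photorespiration genes and 4 of 18 other Calvin cycle genes were called lower. So were 3 of 12 genes of photosynthetic electron transport and ATP synthase. Of all tested genes 8.88% were called lower at 4 h. None of these lists held a gene called higher, against 10.5% of all genes. The summed level of the 5 mesophyll markers, which include antenna genes, was also lower, at 20227 to 23058 RPM with ACC and 25621 to 27657 RPM in mock. Of these 5 markers, 3 were called lower. In whole seedlings, fewer cells of a type and less RNA per cell cannot be told apart.

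Water channel genes were next. TIP2, a channel of the vacuole membrane, stood at 1609, 1699 and 1592 RPM in mock at 4 h and at 684, 828 and 714 RPM with ACC. GAMMA-TIP, also of that membrane, stood at 572, 628 and 572 RPM and at 222, 281 and 228 RPM. Neither gene had overlapping groups at 4 h. Of the 14 aquaporin genes that are not members, 10 were called lower and 1 higher at 4 h.

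Cell wall genes included structural proteins and enzymes. PRP4, a proline-rich wall protein, was at 950, 923 and 901 RPM in mock at 4 h and at 488, 459 and 459 RPM with ACC. ATCSLB05, of the cellulose synthase-like family, was at 24.3, 19.9 and 22.1 RPM and at 8.09, 5.89 and 6.83 RPM. The groups of both genes were apart. At 2 h ATCSLB05 stood at 15.6, 15.2 and 14.2 RPM with ACC, within the mock range of 10.7 to 19.1 RPM. PME2, a pectin methylesterase, was at 14.5, 15.0 and 16.9 RPM in mock at 4 h and at 4.53, 5.94 and 3.96 RPM with ACC, and CASP5, of the family that lines up the endodermal barrier, at 10.3, 12.6 and 13.5 RPM and at 4.58, 5.05 and 5.51 RPM. Neither had overlapping groups at 4 h. The 4 endodermis markers, which include CASP1 and CASP2, summed to 95.1 to 96.7 RPM with ACC and 107 to 115 RPM in mock at 4 h, with 2 called lower, and to overlapping levels at 2 h. The 6 root hair markers went the other way, at 131 to 138 RPM against 89.4 to 115 RPM, with 2 called higher. The phloem companion markers stood at 62.3 to 72.7 RPM against 77.7 to 90.3 RPM, with 1 of 2 called lower. The part of all these markers in the wall result was not tested. No expansin, the wall-loosening proteins of growing cells, is a member: of 22 tested, 12 were called lower and 4 higher at 4 h, and their median difference was -0.52 (log2).

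Among lipid genes, the neighbours LP1 and LTP2 encode small lipid transfer proteins of surface layers. LP1 was at 503, 514 and 508 RPM in mock at 4 h and at 218, 279 and 255 RPM with ACC, and at 2 h ACC library 3 stood alone at 247 RPM beside 504 and 530 RPM. Of the 15 other cuticle and wax genes tested, 12 were called lower at 4 h. Of the 4 shoot epidermis markers, the cuticle list also holds 2. The 4 together summed to 514 to 549 RPM with ACC and 704 to 718 RPM in mock at 4 h, with 3 called lower. At 2 h they summed to 517 to 544 against 647 to 690 RPM, with 2 called lower and 1 higher. The part of these markers in the lipid result was not tested.

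GASA1, which encodes a small gibberellin-regulated peptide, was at 176, 197 and 183 RPM in mock at 4 h and at 66.9, 66.7 and 57.3 RPM with ACC. The 3 ACC libraries were all far below the mock libraries. ERF4, a repressor of the ethylene response factor family, was at 17.1, 14.1 and 11.5 RPM and at 7.08, 7.17 and 6.25 RPM, also without overlap. Its 2 h libraries with ACC were at 19.3, 17.7 and 6.23 RPM, so libraries 1 and 2 were above all 3 mock libraries of 16.5, 15.3 and 13.7 RPM.

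A few genes were chosen on uneven libraries. DFR, the anthocyanin enzyme dihydroflavonol reductase, was at 6.19, 22.0 and 6.45 RPM in mock at 4 h and at 1.25, 8.89 and 6.83 RPM with ACC. Its groups overlapped, with mock library 2 far above the rest. The nitrate transporter NRT1.5, which loads nitrate into root xylem, was at 30.1, 13.5 and 12.7 RPM and at 7.64, 6.72 and 11.6 RPM. The groups were apart, with mock library 1 far above the others. Its 2 h difference was 0.39, so it was among the 5 members with a difference above 0 at that time.

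**Figure D2:**
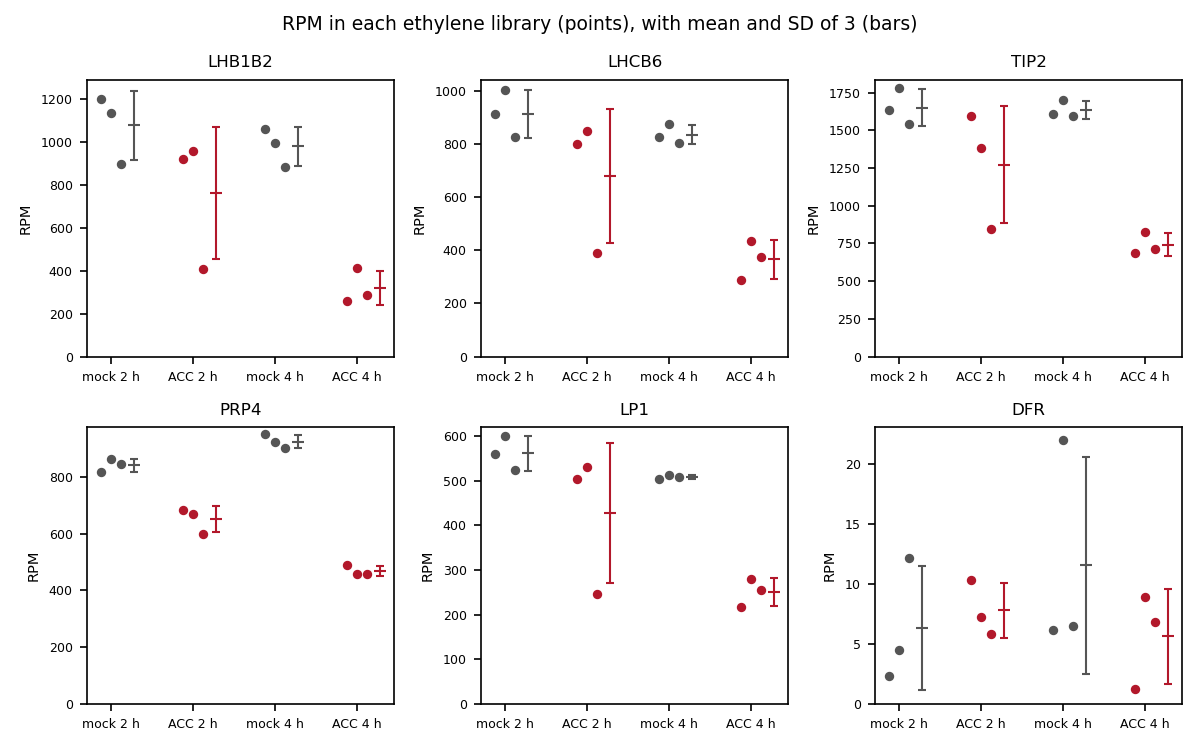
Level in RPM of 6 of the genes in each ethylene library, 1 point per library, with the mean and SD of each group of 3 beside them. The 4 h ACC libraries of LHB1B2, at 261 to 410 RPM, lie below all mock libraries, while DFR overlaps.

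Glucose for 2 h in Col-0 was tested on 133 of the 136 genes, which limma fitted with all genes of the experiment. It raised 57 of them, where 35.7% of all tested genes rose, and lowered 40, where 20.6% of all tested genes fell, so 42.9% of the tested members rose and 30.1% fell. Most wall, lipid and defence-like genes rose, with 12 of 21, 8 of 12 and 8 of 11, and most water channel and transporter genes fell, with 4 of 5 and 6 of 8. In RPM the median of all genes moved by 0.14 (log2) with glucose and under median-of-ratios scaling, which centres each library on its typical gene, by -0.02. Under that scaling 45 of the 133 members rose and 42 fell, beside 5587 and 5876 of all 19336 genes tested. Risers were then 51.7% of the members called and 48.7% of all genes called.

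The antenna genes went in opposite directions in Col-0. LHB1B1 stood at 1074, 2312 and 1471 RPM without glucose and at 250, 274 and 206 RPM with it. The groups were far apart, and the gene fell by 2.67 ± 0.23 (log2, SE; limma adjusted p = 7.93e-07). LHCB2.1 stood at 56.0, 78.9 and 59.8 RPM without glucose and at 176, 147 and 121 RPM with it. All glucose libraries lay above the others, a rise of 1.18 ± 0.30 (limma adjusted p = 0.0043), and LHCB2.2 rose by 1.34 ± 0.30 (limma adjusted p = 0.002). LHB1B2 fell by 1.02 ± 0.23 and LHCB2.3 fell by 1.43 ± 0.33 (limma adjusted p = 0.002 and 0.00214). LHCB6 rose by 0.75 ± 0.22 (limma adjusted p = 0.0116), but under median-of-ratios scaling its adjusted p was 0.0995. Of the 9 photosynthesis genes 3 rose and 4 fell.

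Exon sequence shared with other listed genes bears on these values. Of all 50-base windows of its exons, LHCB2.1 shared 23.5% with another listed gene and LHCB2.2 29.5%, in both cases chiefly with each other, while LHB1B2 shared 22.3% and LHB1B1 13.7%. The highest shares were 100% for AT1G12310 and AT3G41979, which had no window of their own, and 55.7% for AK3. IGMT3 shared 44.7%, chiefly with IGMT2. CCR1 shared 26.4% with NRAMP6, LHCB2.3 39.9% with AT3G27700 and PSAH-1 53.3% with ROPGEF13. Those last partners carry codes next to the gene's own, so neighbouring genes that overlap may be the source, which was not tested. The values of all these genes are uncertain to that extent. How reads matching several genes, or lying where genes overlap, were treated is not given in the sources used here. Within each of the pairs LHB1B2 and LHB1B1, and LHCB2.1 and LHCB2.2, both genes had the same sign in Col-0. Of the 136 genes, 92 shared no window with another listed gene, and 21 shared 10% or more of theirs.

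Of the 21 wall genes, 12 rose and 3 fell in Col-0 (median 1.03). AT5G10130, annotated as a member of the Ole e 1 allergen and extensin family, stood at 3.99, 2.62 and 3.33 RPM without glucose and at 26.3, 29.1 and 24.5 RPM with it. The rise was 2.69 ± 0.17 (log2, SE; limma adjusted p = 4.31e-08), with every glucose library far above the others. Proteins of this family were first known from pollen; pollen markers summed to at most 0.157 RPM in any ethylene library and are not among the genes of the glucose columns. PRP4 rose by 1.59 ± 0.18, and UGT72E2, which stores lignin building blocks as glucosides, by 2.34 ± 0.17 (limma adjusted p = 6.7e-06 and 1.25e-07). AT2G41800, of the DUF642 family of wall proteins, rose by 2.79 ± 0.16 (limma adjusted p = 2.44e-08).

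BXL1, a wall xylosidase, had the deepest of the 3 falls in that group. It stood at 1307, 1677 and 1575 RPM without glucose and at 37.9, 35.7 and 48.5 RPM with it. The groups were far apart, a fall of 5.19 ± 0.25 (limma adjusted p = 4.43e-09). The only member with a lower value was AT2G33830, of the dormancy and auxin associated family, from 322, 551 and 421 RPM to 6.20, 5.66 and 7.54 RPM, or -5.83 ± 0.16 (limma adjusted p = 9.84e-11). Both were far lower in every glucose library.

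Of 12 lipid genes 8 rose and 1 fell (median 0.97), and of 11 lectin, stress and defence-like genes 8 rose and 1 fell (median 0.83). LTP2 stood at 126, 112 and 75.5 RPM without glucose and at 295, 329 and 286 RPM with it, a rise of 1.56 ± 0.16 (limma adjusted p = 3.31e-06). LP1 rose by 1.01 ± 0.10. AT3G19430, annotated as related to late embryogenesis proteins, rose by 2.70 ± 0.14 (limma adjusted p = 9.91e-09). MSRB9, a methionine sulfoxide reductase that repairs oxidised protein, rose by 1.47 ± 0.15.

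Of the 5 water channel genes 4 fell and none rose. DELTA-TIP stood at 632, 1072 and 759 RPM without glucose and at 119, 128 and 112 RPM with it. All glucose libraries were far below, a fall of 2.73 ± 0.22 (limma adjusted p = 3.66e-07). PIP1C, a channel of the plasma membrane, fell by 2.00 ± 0.14, TIP2 by 1.46 ± 0.15 and RD28 by 0.90 ± 0.13. GAMMA-TIP changed by 0.44 ± 0.18 and did not pass (limma adjusted p = 0.0524). In the whole aquaporin list, 7 of the 14 others fell and 4 rose.

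Of 8 transporter genes 6 fell and 1 rose. NRT1.5 went from 32.9, 17.1 and 26.7 RPM to 3.25, 4.44 and 6.71 RPM, a fall of 2.19 ± 0.26 (limma adjusted p = 1.13e-05). Every glucose library lay below every other. The amino acid transporters UMAMIT20, CAT6, UMAMIT17 and SIAR1 fell by 2.17, 2.03, 1.96 and 1.39. The copper transporter gene COPT6 fell by 0.76 ± 0.18, and ABCG35, an ATP-driven exporter, rose by 1.01 ± 0.16. ERD5, the proline-degrading dehydrogenase, fell by 3.35 ± 0.17, SIP2, which splits raffinose, by 2.37 ± 0.19, and ICL, of the glyoxylate cycle, by 1.35 ± 0.37. The remorin gene AT3G61260 fell by 2.47 ± 0.16, the regulator ZFHD1 by 1.98 ± 0.18 and GASA1 by 1.56 ± 0.15.

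In secondary metabolism 5 of 8 genes rose and 2 fell. DFR stood at 1.11, 0.279 and 2.80 RPM without glucose and at 16.5, 23.2 and 10.2 RPM with it, the largest rise of a member at 2.95 ± 0.44 (limma adjusted p = 7.78e-05). GSTF12, a transferase needed to bring anthocyanin into the vacuole, rose by 2.40 ± 0.34. The adjacent methyltransferase genes parted: IGMT3 rose by 1.31 ± 0.32 and IGMT1 fell by 1.11 ± 0.29 (limma adjusted p = 0.00346 and 0.00479).

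Proteases and regulators had no common direction, with 2 up and 2 down of 7 and 4 up and 4 down of 8 in Col-0. The aspartyl protease gene AT5G07030 went from 6.26, 4.35 and 5.66 RPM to 40.6, 36.5 and 34.5 RPM, a rise of 2.58 ± 0.23 (limma adjusted p = 1.07e-06). AT1G03220, of the same family, went from 171, 185 and 141 RPM to 82.7, 90.7 and 92.0 RPM, a fall of 0.89 ± 0.16 (limma adjusted p = 0.000294), while its neighbour AT1G03230 changed by 0.15 ± 0.13 and did not pass. The auxin-related F-box gene AUF1 rose by 0.58 ± 0.09. ERF4 rose by 0.46 ± 0.11 (limma adjusted p = 0.00267), a call lost under median-of-ratios scaling (limma adjusted p = 0.0856). The genes with no glucose call in Col-0 included the highly lowered ATCSLB05, at 0.57 ± 0.30, which was at about 1 RPM in these seedlings, and FBA2 and PSAH-1 at -0.11 ± 0.18 and -0.18 ± 0.16.

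Marker genes moved as well in these seedlings. With glucose in Col-0 the 5 mesophyll markers summed to 31426 to 35502 RPM against 37903 to 49695 RPM without it, and 2 were called lower. The phloem companion markers summed to 23.8 to 26.0 RPM against 78.9 to 95.9 RPM, with 1 of 2 called lower. Root hair markers summed to 58.4 to 86.2 RPM with glucose against 17.2 to 24.3 RPM, with 5 of 6 called higher. Root cortex markers summed to 57.6 to 64.3 RPM against 27.6 to 33.9 RPM, with 1 of 2 called higher. Endodermis markers stood at 114 to 118 RPM against 91.5 to 101 RPM, with 1 of 4 called higher and 1 lower. Shoot epidermis markers stood at 995 to 1011 RPM against 1040 to 1203 RPM, with 1 of 4 called higher and 2 lower. Their part in the results was not tested.

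**Figure D3:**
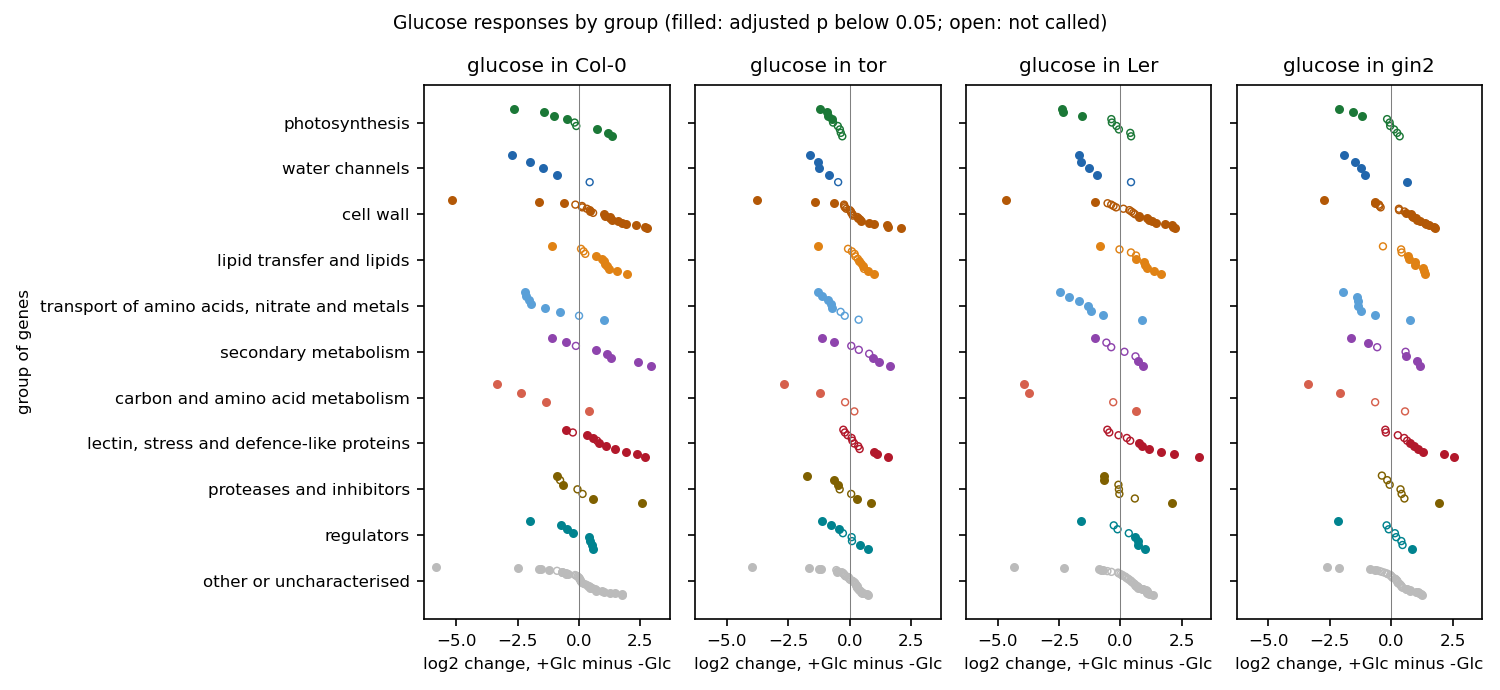
Change with glucose, log2(RPM + 1), for each member by group (vertical axis) in Col-0, tor, Ler and gin2, 1 point per gene, filled where limma called it. Wall and lipid genes lie mostly right of 0 and water channel and transporter genes mostly left, with BXL1 at -5.19 in Col-0.

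In the libraries labelled tor, 27 of 133 genes rose with glucose, where 19.9% of all tested genes rose, and 33 fell, where 14.8% fell. Calls in both Col-0 and tor covered 25 risers, which is 43.9% of those in Col-0 and 92.6% of those in tor, and 28 fallers, 70.0% and 84.8%. The same overlap over all tested genes was not computed, so these shares cannot be read as a trait of the late genes. Wall genes went 7 up and 3 down of 21, and lipid genes 4 up and 1 down of 12. Transporters and water channels again fell, in 5 of 8 and 4 of 5 genes, and none rose. None of the 9 photosynthesis genes was called higher and 4 were called lower. Under median-of-ratios scaling 22 members rose and 32 fell, beside 3431 and 3712 of all 19336 genes tested. Root hair markers summed to 10.7 to 20.2 RPM with glucose in tor against 9.30 to 30.7 RPM without, and root cortex markers to 68.3 to 72.9 against 57.3 to 75.0 RPM. For 4 of 6 root hair markers the effect was called lower than in Col-0. Phloem companion markers stood at 43.2 to 65.2 against 95.9 to 125 RPM, with 1 of 2 called lower. The part of these markers was not tested.

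The glucose effect itself differed between tor and Col-0 for 45 of the 133 genes, where it differed for 17.4% of all tested genes. For 14 the effect was higher in tor, where 6.21% of all tested genes had such a call, and for 31 it was lower, where 11.2% did. Under median-of-ratios scaling these counts were 17 and 25, beside 2049 and 1966 of all 19336 genes tested. Lower effects fell on wall genes in 8 of 21, on lipid genes in 5 of 12 and on lectin and defence-like genes in 5 of 11. Higher effects fell on 3 of 8 transporter genes.

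Antenna genes differed in both directions. LHB1B1 in tor stood at 3162, 3857 and 2769 RPM without glucose and at 2061, 2140 and 2789 RPM with it. These groups overlapped at the edge, and the change of -0.49 ± 0.23 did not pass (limma adjusted p = 0.13), so that the effect was 2.18 ± 0.33 higher than in Col-0 (limma adjusted p = 0.00116). LHCB2.1 in tor stood at 130, 105 and 125 RPM without glucose and at 37.5, 116 and 60.4 RPM with it. Glucose library 2 lay within the range of the others, and the fall of 0.89 ± 0.30 passed (limma adjusted p = 0.0336). It did not pass with edgeR or DESeq2 (adjusted p = 0.0924 and 0.124), nor when any 1 of 5 of the 6 tor libraries was left out; without tor glucose library 1 the change was -0.51. Its effect was 2.07 ± 0.42 below that in Col-0 (limma adjusted p = 0.0058), which held under all 20 alternatives with a highest adjusted p of 0.0236. LHCB2.2 changed by -0.68 ± 0.30 in tor (limma adjusted p = 0.1), with an effect lower by 2.01 ± 0.43 (limma adjusted p = 0.00707). LHB1B2 fell in tor by 0.71 ± 0.23 (limma adjusted p = 0.0284), a call lost under median-of-ratios scaling (limma adjusted p = 0.0519), and its effect differed by 0.31 ± 0.32 (limma adjusted p = 0.565).

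Several genes that rose in Col-0 did so less in tor. DFR in tor stood at 13.2, 13.4 and 15.5 RPM without glucose and at 11.7, 38.9 and 13.4 RPM with it, so 1 library of 3 was higher. Its change of 0.37 ± 0.44 did not pass, and the effect was 2.58 ± 0.62 lower than in Col-0 (limma adjusted p = 0.0133). AT3G19430 went from 29.3, 28.7 and 31.1 RPM to 53.6, 68.4 and 58.9 RPM, a rise of 0.99 ± 0.14 that was 1.71 ± 0.20 below that in Col-0 (limma adjusted p = 0.000232). The groups were apart in both genotypes. PRP4 changed by 0.31 ± 0.18 and LTP2 by 0.33 ± 0.16, neither passing, with effects lower by 1.28 ± 0.25 and 1.23 ± 0.23 (limma adjusted p = 0.00485 and 0.00344). AT5G10130 rose by 1.55 ± 0.17, an effect lower by 1.14 ± 0.24 (limma adjusted p = 0.00639). CCR1, which makes lignin precursors, rose by 1.26 ± 0.08 in Col-0 and 0.45 ± 0.08 in tor, a difference of -0.81 ± 0.11 (limma adjusted p = 0.000677). UGT72E2 rose by 2.08 ± 0.17 and its effect differed by -0.26 ± 0.23, which did not pass.

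Several genes that fell in Col-0 fell less in tor. AT2G33830 fell by 3.99 ± 0.16 in tor, an effect 1.84 ± 0.23 higher (limma adjusted p = 0.000414). NRT1.5 in tor stood at 2.57, 2.21 and 3.25 RPM without glucose, no higher than Col-0 with glucose, and at 2.65, 1.39 and 1.58 RPM with it. Its change of -0.37 ± 0.26 did not pass, and the effect was 1.82 ± 0.37 higher (limma adjusted p = 0.00557). From so low a start NRT1.5 had too little room on this scale to fall as far as in Col-0. How much of the higher effect in tor came from the low level was not tested. DELTA-TIP fell by 1.28 ± 0.22, and BXL1 by 3.77 ± 0.25, with effects higher by 1.45 ± 0.31 and 1.42 ± 0.35 (limma adjusted p = 0.00735 and 0.0145). SIP2 also fell, with an effect higher by 1.18 ± 0.27 (limma adjusted p = 0.0111). ERD5 fell by 2.68 ± 0.17 and its effect did not pass as different (limma adjusted p = 0.0724). Besides LHCB2.1, the only gene called in opposite directions was AIF1, a brassinosteroid-related regulator, at -0.23 ± 0.09 in Col-0 and 0.40 ± 0.09 in tor. The Col-0 call of AIF1 was lost with the replicate number as a block (limma adjusted p = 0.0517) and without any 1 of 5 of the 6 Col-0 libraries, where the limma adjusted p reached 0.184 and the change -0.16 (without glucose library 3).

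**Figure D4:**
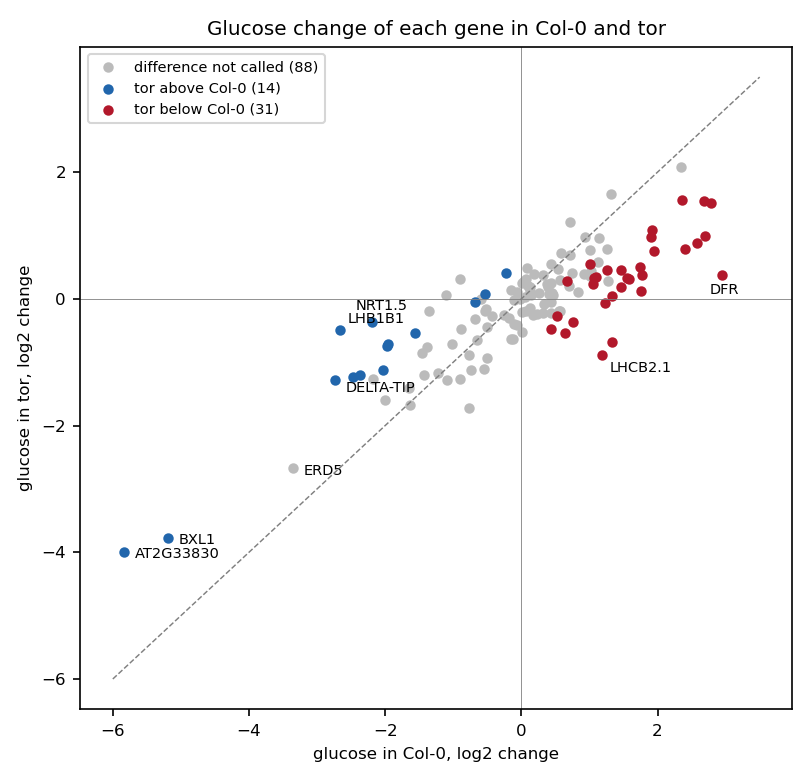
Change with glucose, log2(RPM + 1), in Col-0 (horizontal axis) and in the libraries labelled tor (vertical axis) for 133 genes, 1 point per gene, coloured by the test of the difference. The 31 genes with a lower effect in tor lie mostly at right below the line of equality and the 14 with a higher effect mostly at left above it, with LHB1B1 at -2.67 and -0.49.

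Before glucose, tor and Col-0 already differed. Without glucose, 59 of 133 genes were higher in tor, where 40.3% of all tested genes were, and 32 lower, where 15% were. The median over all genes was 0.24 in RPM and -0.00 under median-of-ratios scaling, under which 45 members were higher and 41 lower. Of all 19336 genes tested, 4825 were higher and 5257 lower under that scaling. LTP2 was at 551, 654 and 503 RPM in tor, higher by 2.46 ± 0.16 (limma adjusted p = 1.58e-07), and AT3G19430 was higher by 3.79 ± 0.14 (limma adjusted p = 1.7e-09). DFR was higher by 2.79 ± 0.44, MSRB9 by 2.48 ± 0.15, PRP4 by 1.76 ± 0.18 and LHB1B2 by 1.75 ± 0.23. On the other side UMAMIT17 was lower, at -2.84 ± 0.24, as were NRT1.5 at -2.81 ± 0.26, LHCB2.3 at -2.49 ± 0.33 and BXL1 at -2.26 ± 0.25 (limma adjusted p = 1.29e-06, 2.2e-06, 3.6e-05 and 8.4e-06). The 4 shoot epidermis markers summed to 1532 to 1686 RPM in tor without glucose and to 1040 to 1203 RPM in Col-0. Of them 3 were called higher in tor and 1 lower. The mesophyll markers stood at 17526 to 20544 RPM against 37903 to 49695 RPM, with 4 of 5 called lower in tor. Endodermis markers were higher in tor, at 147 to 166 against 91.5 to 101 RPM, and root cortex markers at 57.3 to 75.0 against 27.6 to 33.9 RPM. So were the 3 xylem markers listed, at 70.8 to 73.5 against 23.1 to 44.9 RPM, and root cap markers, at 7.79 to 9.32 against 4.07 to 6.13 RPM. Root hair markers overlapped, at 9.30 to 30.7 against 17.2 to 24.3 RPM. Guard cell markers had a lower sum, at 24.7 to 29.7 against 33.5 to 42.3 RPM, with 1 of 4 called lower. The part of these markers in the antenna, wall and lipid results was not tested. These comparisons share the tor and Col-0 libraries without glucose with the glucose effects above, so they are set side by side and not as independent results.

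In Ler, 126 of the genes were tested. Glucose raised 45, where 17.4% of all tested genes rose, and lowered 27, where 11.3% fell. By role, 10 of 21 wall genes rose and 2 fell, 6 of 10 lipid genes rose and 1 fell, 6 of 11 lectin and defence-like genes rose and none fell, 4 of 5 water channels fell and none rose, and 6 of 7 transporters fell and 1 rose. Photosynthesis genes had 3 of 9 falling and none rising in Ler, beside 4 and 3 in Col-0, and regulators had 4 of 8 rising and 1 falling, beside 4 and 4. Of the genes tested in both wild types, 36 rose in both, 67.9% of the 53 in Col-0 and 80.0% of the 45 in Ler, and 25 fell in both, 62.5% of 40 and 92.6% of 27. The experiments share no library. The same overlap over all tested genes was not computed, so these shares cannot be read as a trait of the late genes. Under median-of-ratios scaling 44 members rose in Ler and 35 fell, beside 4389 and 4415 of all 17352 genes tested. With glucose in Ler, the 5 listed root hair markers summed to 50.1 to 95.03 RPM against 25.1 to 48.1 RPM, with 4 called higher. Root cortex markers summed to 34.7 to 46.1 RPM against 18.7 to 28.7 RPM, with 1 of 2 called higher. Phloem companion markers summed to 33.7 to 48.6 RPM against 64.8 to 93.1 RPM, with 1 of 2 called lower. In gin2 root hair markers also summed higher with glucose, at 37.6 to 39.1 against 12.5 to 17.3 RPM, with 4 of 5 tested called higher. So did root cortex markers, at 40.2 to 42.4 against 21.2 to 25.5 RPM, with 1 of 2 called higher. Phloem companion markers were not lower in gin2, at 71.2 to 79.6 against 60.9 to 81.6 RPM. Their part in the results was not tested.

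LHB1B1 in Ler went from 508, 595 and 729 RPM to 136, 103 and 108 RPM, a fall of 2.38 ± 0.25 (limma adjusted p = 2.64e-08). The groups were far apart as in Col-0. LHCB2.1 did not follow its rise in Col-0: it stood at 45.2, 44.4 and 35.8 RPM without glucose and at 36, 32.7 and 29.0 RPM with it, a change of -0.35 ± 0.23 that did not pass (limma adjusted p = 0.272). LHCB2.2 changed by -0.37 ± 0.22, also without passing. No photosynthesis gene rose in Ler. The difference between the wild types was not tested, since they came from separate experiments.

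BXL1 in Ler went from 694, 592 and 397 RPM to 16.1, 25.2 and 20.7 RPM, a fall of 4.68 ± 0.24, and SIP2 from 914, 850 and 450 RPM to 44.1, 68.4 and 49.1 RPM, a fall of 3.71 ± 0.25 (limma adjusted p = 1.29e-14 and 5.21e-12). Ler library 3 was the lowest for both genes without glucose, yet far above all glucose libraries. AT3G19430 rose by 3.18 ± 0.24 and AT5G10130 by 2.24 ± 0.21. DFR stood at 7.40, 3.05 and 2.13 RPM and at 5.17, 7.62 and 6.17 RPM, overlapping, with a change of 0.61 ± 0.34 that did not pass. LTP2 rose by 0.99 ± 0.36 (limma adjusted p = 0.0369) but not under median-of-ratios scaling (limma adjusted p = 0.15).

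In gin2, 41 of 126 genes rose with glucose, where 18.7% of all tested genes rose, and 25 fell, where 8.73% fell. Under median-of-ratios scaling 33 rose and 32 fell, beside 3946 and 4113 of all 17352 genes tested. In both Ler and gin2, 33 genes rose, 73.3% of the 45 in Ler and 80.5% of the 41 in gin2, and 22 fell, 81.5% of 27 and 88.0% of 25, with none in opposite directions. For all tested genes this overlap was not computed either. The test of the difference called a higher effect in gin2 for 3 genes, where 0.236% of all tested genes had one. A lower effect was called by limma for 0 of 126 members, where 0.0576% of all tested genes had one, and at an unadjusted p of 0.05 for 1.

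The 3 genes fell with glucose in all 4 genotypes. BXL1 in gin2 went from 1004, 918 and 968 RPM to 128, 140 and 165 RPM, a fall of 2.74 ± 0.24, which is 1.95 ± 0.34 less deep than in Ler (limma adjusted p = 0.00426). AT2G33830 went from 684, 497 and 666 RPM to 87.3, 84.9 and 130 RPM, a fall of 2.61 ± 0.23 and an effect higher by 1.73 ± 0.33 (limma adjusted p = 0.00899). SIP2 went from 694, 780 and 809 RPM to 171, 190 and 168 RPM, with an effect higher by 1.61 ± 0.36 (limma adjusted p = 0.0415). For all of them the gin2 glucose libraries lay above all Ler glucose libraries. The BXL1 call held under all 17 alternatives, those of AT2G33830 and SIP2 were lost in 4 and 9 of 18, each time on leaving out 1 library. ERD5, by contrast, fell by 3.38 ± 0.23 in gin2 and 3.94 ± 0.23 in Ler, a difference that did not pass.

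Without glucose, 23 genes were higher in gin2 than in Ler, where 49.9% of all tested genes were, and 17 lower, where 1.66% were. This split turned with the scaling: under median-of-ratios scaling 5 were higher and 49 lower, and the median over all genes went from 0.55 to 0.00. Of all 17352 genes tested, 2586 were then higher and 3018 lower. Gene values between these genotypes are therefore given only where their sign is the same under both. NRT1.5, at 11.8, 12.5 and 19.4 RPM in gin2 and 4.996, 4.77 and 3.80 RPM in Ler, was higher by 1.47 ± 0.23, and LHB1B1, at 394, 227 and 251 RPM in gin2, was lower at -1.10 ± 0.25 (limma adjusted p = 7.31e-05 and 0.00154). Neither pair of groups overlapped.

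**Figure D5:**
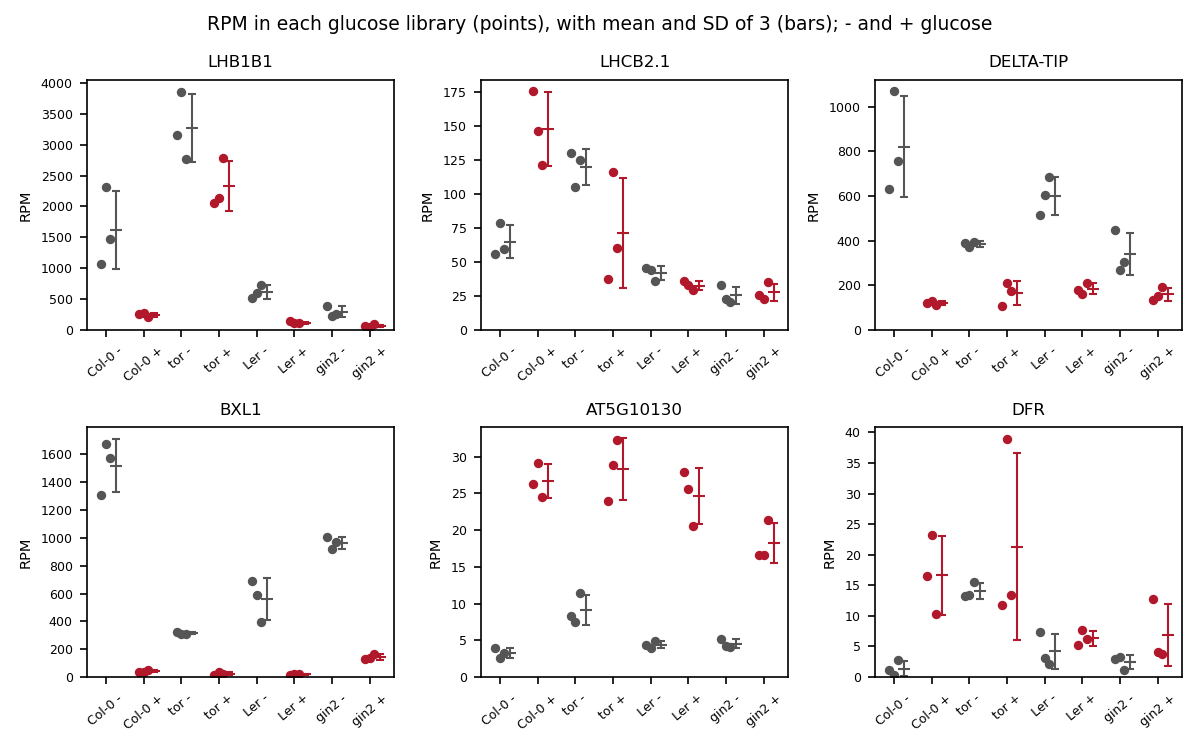
Level in RPM of 6 of the genes in each library of the glucose experiments, 1 point per library, with the mean and SD of each group of 3 beside them, without (-) and with (+) glucose. LHB1B1 drops in Col-0 to 206 to 274 RPM and stays at 2061 RPM or more in tor, and LHCB2.1 rises in Col-0 to 121 to 176 RPM.

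Among the 126 genes tested in all 4 genotypes, 19 rose in all, 18 fell in all, 19 were called in none and 5 were called in opposite directions in a pair of genotypes. Over all 17113 genes tested in all genotypes, 8.57% rose and 5.44% fell in all. The shares of all genes called in none or in opposite directions were not computed. Risers in all 4 included AT5G10130, AT2G41800, AT3G19430, UGT72E2 and LP1. Fallers in all 4 included BXL1, AT2G33830, ERD5, SIP2, CAT6, UMAMIT20, GASA1 and LHB1B2. The tor call of GASA1 was lost with edgeR (adjusted p = 0.0534), with only the groups compared (limma adjusted p = 0.0589) and without any 1 of 4 of the 6 tor libraries (up to 0.0602). Its Ler call was lost with only the groups compared (limma adjusted p = 0.134) and without any 1 of 2 libraries (up to 0.0682), and its gin2 call without any 1 of 2 libraries (up to 0.0591). The tor call of LHB1B2 was also lost with edgeR, with DESeq2 and without any 1 of 3 tor libraries (limma adjusted p up to 0.11). The water channels DELTA-TIP, TIP2, PIP1C and RD28 fell in all, and GAMMA-TIP was called in gin2 alone, as a rise of 0.66 ± 0.24 (limma adjusted p = 0.0372), a call lost under median-of-ratios scaling (limma adjusted p = 0.12). Those in opposite directions were LHCB2.1, AIF1, IGMT3, which rose in Col-0 and tor and fell in gin2, and AT3G46700 and AT5G24570. AT3G46700 fell in Col-0 and tor and rose in gin2 by 0.59 ± 0.22 (limma adjusted p = 0.0448), a rise lost under median-of-ratios scaling (limma adjusted p = 0.103), with a pseudocount of 0.25 RPM (limma adjusted p = 0.111) and without any 1 of the 6 gin2 libraries (limma adjusted p = 0.057 to 0.153). AT5G24570 rose in Ler and fell in tor by 0.53 ± 0.16 (limma adjusted p = 0.0244), a fall lost without any 1 of 3 tor libraries (limma adjusted p up to 0.112).

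The 126 genes left out because ACC had lowered them by 2 h as well gave other shares. In Col-0, 63.6% of the 121 tested rose with glucose and 14.9% fell, against 42.9% and 30.1% of the late genes. In Ler, 54.1% rose and 13.8% fell, against 35.7% and 21.4%. In gin2 the shares were 52.3% and 7.34% against 32.5% and 19.8%, and in tor 30.6% and 19.0% against 20.3% and 24.8%. The difference between the sets was not tested.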

How the data were processed

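Reads were aligned with TopHat and counted with HTSeq, per the submitters' processing notes, and the deposited values are RPM made by the authors from those counts. Not given in the sources used here are versions, build, strand setting and the treatment of reads matching several genes. The glucose columns list 19382 genes for Col-0 and tor, 17367 for Ler and 18402 for gin2. Of the members, 134, 126 and 127 are listed there.

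For each experiment of 12 libraries, limma 3.58.1 (R 4.3.3) was run with its trend option on log2(RPM + 1), over genes at 1 RPM or more in at least 3 libraries. Calls needed a two-sided Benjamini-Hochberg adjusted p under 0.05. Errors of log2 changes are SE. Columns of the ethylene, Col-0, tor and Ler libraries gave whole reads for 100% of values within 0.02 reads, which served edgeR 4.0.16 and DESeq2 1.42.0 as alternatives. The limma step was run on simulated counts for glucose in Col-0 and in Ler only. The simulation held no uneven libraries and no difference of effects, so it does not speak to those. Correlations of residuals between libraries with equal numbers exceeded 0.1 in all 3 pairs for no comparison, so the numbers were not treated as pairs. Single pairs were higher, at 0.635 for the Ler libraries numbered 3 and 0.406 for mock and ACC library 3 at 2 h. Glucose counts with the number as a block are given below.

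The members, roles and lists were chosen with earlier results of these data known. Named genes were the 12 lowest at 4 h, the 8 highest in mock, up to 4 per list or protein family, the 5 largest rises and falls per comparison and those nearest each limit. PIP1C, AT3G46700 and AT5G24570 were named after their values were seen. AT1G12310, AT3G41979 and AK3 are named only for their shared exon sequence.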

Additional observations from a re-analysis of the deposited data

Results flagged for a closer look

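The effect of glucose differed between the libraries labelled tor and Col-0, by the test of the difference itself, for 14 genes with a higher and 31 with a lower effect in tor. The log2 differences of the named genes are given as effect in tor minus effect in Col-0. Among antenna genes they were 2.18 for LHB1B1, -2.07 for LHCB2.1, -2.01 for LHCB2.2 and -1.11 for LHCB6. The water channel genes DELTA-TIP and GAMMA-TIP had 1.45 and -0.91.

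Lower effects in tor among wall and lipid genes were -1.28 for PRP4, -1.27 for AT2G41800, -1.14 for AT5G10130, -0.81 for CCR1, -1.23 for LTP2, -1.19 for GLL22 and -0.46 for LP1. In secondary metabolism they were -2.58 for DFR and -1.61 for GSTF12. Among defence-like genes, proteases and others they were -1.71 for AT3G19430, -1.71 for AT5G07030, -1.28 for MSRB9 and -0.80 for AT1G73620.

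Higher effects were 1.82 for NRT1.5, 1.25 for UMAMIT17 and 0.90 for CAT6 among transporters. NRT1.5 had a low level in tor without glucose, and the part of that level in its effect was not tested. BXL1 had 1.42 and SIP2 1.18, genes that glucose lowers. The others were AT2G33830 at 1.84, AT3G61260 at 1.24, ZFHD1 at 1.23, GASA1 at 1.03, AIF1 at 0.63 and AT1G25275 at 0.61.

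Calls for LHCB6, LP1, AT1G73620, GSTF12, UMAMIT17 and GAMMA-TIP were lost in 10, 14, 10, 12, 10 and 8 of 20 alternatives, and the other tor differences above were called in all of theirs.

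Between gin2 and Ler the effect of glucose differed for 3 genes, all higher in gin2: BXL1 by 1.95, AT2G33830 by 1.73 and SIP2 by 1.61.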

How the results depend on the processing

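A limit of -1 at 4 h left 53 members, and leaving out 1 library gave 104 (without ACC 2 h library 1) to 171 members (without ACC 4 h library 2). Median-of-ratios scaling called 5 genes with a higher glucose effect in gin2, where it called 256 of all 17352 genes tested. It put 5 genes higher and 49 lower in gin2 than Ler without glucose. Without both Ler libraries numbered 3, 7 genes had a higher glucose effect in gin2. Leaving out 1 library gave 1 to 5 such genes, with 1 on omitting Ler library 2 or gin2 library 2 without glucose, or Ler library 1 or gin2 library 3 with it, and 5 without Ler library 3. The count lower in gin2 without glucose then ran from 10 (without gin2 library 2 or 3) to 20. The other counts stayed within 1.5 times. Up and down, they were 53 to 56 and 36 to 39 in Col-0 and 22 to 33 and 26 to 36 in tor. In Ler they were 37 to 50 and 22 to 31, and in gin2 31 to 38 and 20 to 25. Shares of all tested genes are not given for counts with libraries left out or with the replicate block below. None of these counts can therefore be read as a trait of the late genes.

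With the replicate number as a block, counts up and down were 56 and 39 in Col-0, 26 and 33 in tor, 15 and 29 for the tor difference, 48 and 27 in Ler, 44 and 25 in gin2, and 3 and 0 for the gin2 difference. The block ended 3 named calls, AIF1 in Col-0 (limma adjusted p = 0.0517), the tor difference of GSTF12 (0.0634) and tor against Col-0 for AT1G73620 (0.0548).

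Of 261 named values, none changed direction. Calls were lost in 90 cases under other settings, most often median-of-ratios scaling (26), edgeR (22) and DESeq2 (17), and in 177 of 1764 cases on leaving out 1 library. Count models were not run for gin2, and a fit to only the groups compared gives no difference of effects.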
